A study of Mus musculus with 11 samples.

Results

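Serine and glycine are made, exchanged and broken down by a small set of enzymes and transporters, and 10 of these genes were followed across 4 brain regions in sorted mouse astrocytes: the glycine cleavage system (Gldc, Gcsh, Amt, Dld), the pair of enzymes that make and oxidize D-serine (Srr, Dao), the plasma membrane glycine transporters (Slc6a9, Slc6a5) and the first enzymes of serine synthesis (Phgdh, Psat1). The 10 genes were taken from a list, out of 24421 listed genes, and were chosen by role and by the measured brainstem levels of Gldc (low) and Dao (high). The brainstem levels of these genes are therefore given as a description without a test, and tests were kept to the other 3 regions. Cells came from 16-week old BAC Aldh1l1-eGFP mice on a C57BL/6 background, both males and females, with no treatment, and eGFP+ cells were isolated by FACS. The groups were olfactory bulb (OB, 3 samples), hippocampus (HC, 3), cortex (CX, 2) and brainstem (BS, 3), and all share the same transgene, in which regulatory sequence of the astrocyte gene Aldh1l1 drives GFP. No source used here ties samples to separate animals, so p-values measure the spread between these samples only.

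Astrocytes take 3-phosphoglycerate from glycolysis and turn it into L-serine in a short pathway that Phgdh opens. Serine hydroxymethyltransferases convert L-serine to glycine, and the glycine cleavage system of the mitochondrion breaks glycine down into carbon dioxide, ammonia and a one-carbon unit held on folate. Serine racemase makes D-serine, which together with glycine acts as a co-agonist of NMDA receptors, and D-amino acid oxidase destroys it. In brainstem and spinal cord glycine is also the transmitter of inhibitory neurons.

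The libraries held 2830746 to 14151670 reads on genes (median 5552215). Values are read counts divided by 1 size factor per sample, called normalized values here, and are compared between genes only after division by exon length. All 8 astrocyte markers were detected in every sample, with summed levels of 230526 to 275534 in OB, 270999 to 461723 in HC, 555938 to 630026 in CX and 93288 to 277780 in BS. Aldh1l1 itself had means of 959 ± 15.3 (SD, n = 3) in OB, 764 ± 196 (n = 3) in HC, 1180 ± 194 (n = 2) in CX and 845 ± 356 (n = 3) in BS. Transcripts of other cells were present as well. The summed level of 7 choroid plexus markers was 199 to 310 in OB, 1677 to 4818 in CX, 69759 to 141596 in HC and 50465 to 237043 in BS, and that of 6 oligodendrocyte markers was 51314 to 88198 in BS against 9464 to 39182 in the other samples. The ribosomal RNA precursor Rn45s took 0.966% to 2.93% of reads in OB and HC and 17.96% to 25.6% in CX and BS. In these bulk samples, fewer cells of a type and less RNA per cell cannot be told apart.

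Gldc encodes the P protein, the decarboxylase that acts first on glycine. It lies on chromosome 19 (30098447 to 30175429, minus strand, GRCm38). The promoter window is shown because the level of this gene separated BS from every other sample. It is the 250 bases before the RefSeq start (GRCm38.p6, chr19:30175442-30175691, minus strand), with capitals marking a GC box (GGGCGG or its reverse complement) at position -86 from the start site and a CCAAT box (CCAAT or its reverse complement) at position -66.
Gldc: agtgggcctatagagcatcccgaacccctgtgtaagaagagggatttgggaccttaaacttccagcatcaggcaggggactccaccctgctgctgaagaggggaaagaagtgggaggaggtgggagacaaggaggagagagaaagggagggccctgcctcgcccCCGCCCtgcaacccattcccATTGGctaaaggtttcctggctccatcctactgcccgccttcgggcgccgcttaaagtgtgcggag
A GC box was found in 32.7% and a CCAAT box in 33.8% of 32851 such windows of the mouse genome on either strand, so these matches are a description of the sequence only. No window of the 10 genes held the palindromic NFI site (0.0365% of all windows) or the C/EBP-ATF element TGATGNAA (3.45%), both searched on both strands.

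Gldc was the member with the lowest brainstem level relative to the other regions. The normalized values were 1084, 1104 and 1313 in the OB samples and 680, 975 and 1089 in the HC samples. They were 961 and 826 in the CX samples. The BS samples stood at 36.8, 62.1 and 37.9, all below every other sample. The means were 1167 ± 127 (SD, n = 3) in OB, 915 ± 211 (n = 3) in HC, 894 ± 95.2 (n = 2) in CX and 45.6 ± 14.3 (n = 3) in BS. The OB mean was 25.6 times, the HC mean 20.1 times and the CX mean 19.6 times the BS mean. On the log2(value + 1) scale BS stood at -4.45 (SE 0.21) against the 8 other samples pooled, and 84 reads over the 3 BS libraries stand behind its level. Among OB, HC and CX the sample ranges of neighbours in the order of means overlapped, while every OB sample lay above both CX samples. No difference passed the test (limma moderated F over 8 samples, adjusted p = 0.306).

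Each sample was also scaled to its own Aldh1l1, as a description of values that took part in the choice of the genes. The ratio of Gldc to Aldh1l1 was 1.11 to 1.37 in OB, 1.17 to 1.25 in HC and 0.730 to 0.793 in CX. It was 0.0494 to 0.0590 in BS, below every other sample. The astrocyte marker sum was also lowest in BS 1 and BS 3 (93288 and 159991). Slc1a2 made up most of it in these samples (61764 and 113316), as in every other sample. Of the 8 astrocyte markers, 1 (Slc1a3) had every BS sample below every other. Slc1a2 was 61764 to 208927 in BS and 162749 to 541892 in the other samples. Gja1 was 2277 to 3941 in BS and 2932 to 5494 elsewhere, and Sox9 1311 to 1823 and 1199 to 2695. Gfap was 1160 to 1779 in BS and 889 to 4028 elsewhere, and Aldoc 14924 to 32973 and 18138 to 33364. Aqp4 was 9275 to 20767 in BS and 5077 to 13521 in the other samples. The part of astrocyte content in the Gldc values was not tested.

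**Figure D1:**
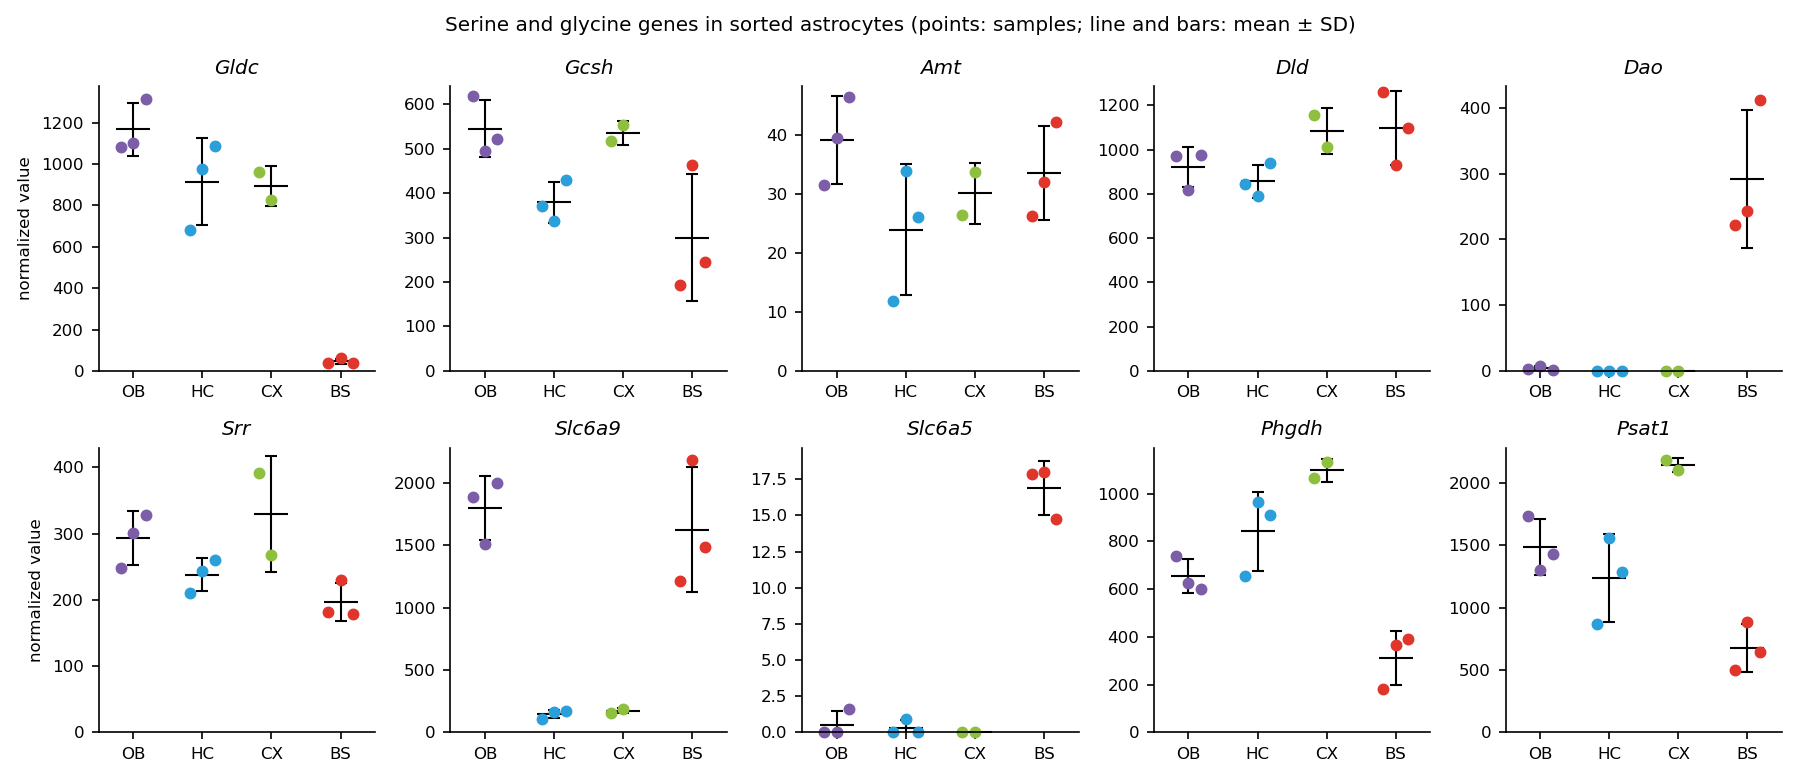
Normalized value (linear axis from 0, its own scale in each panel) of the 10 genes in each sample of OB, HC, CX and BS. Points are samples, the horizontal line is the region mean and the bars are ± 1 SD. Gldc sits between 36.8 and 62.1 in BS and between 680 and 1313 elsewhere, Dao is above 200 in BS only, and Slc6a9 is high in OB and BS and low in HC and CX.

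For the other 3 glycine cleavage genes the normalized values of the BS samples overlapped those of other regions. Gcsh encodes the H protein, which carries the reaction intermediate on a lipoyl arm. Its values were 618, 496 and 521 in OB, 372, 338 and 429 in HC, 516 and 554 in CX, and 193, 463 and 244 in BS. BS 2 lay above every HC sample and below every OB and CX sample, while BS 1 and BS 3 lay below all of them. The BS difference was -0.75 (SE 0.25) on the log2(value + 1) scale. Scaled to Aldh1l1, Gcsh was 0.310 to 0.372 in BS and 0.392 to 0.685 in the other samples, without overlap. Among OB, HC and CX the adjusted p was 0.0838 (limma, moderated F).

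Amt encodes the T protein, which passes the one-carbon unit to folate, and per kilobase it was the least abundant of the group in OB, HC and CX. Its values were 31.5, 39.5 and 46.3 in OB, 11.9, 33.8 and 26.0 in HC, 26.4 and 33.7 in CX, and 26.3, 32.1 and 42.1 in BS. The ranges of all neighbouring regions overlapped, and the BS difference was 0.16 (SE 0.40) on the log2(value + 1) scale, with the sign turning to -0.02 without HC 1 and -0.01 without BS 3. Dld encodes the L protein, dihydrolipoamide dehydrogenase, an enzyme shared with the pyruvate and 2-oxoglutarate dehydrogenase complexes. It ranged from 789 to 1157 in the 8 samples of OB, HC and CX and from 930 to 1263 in BS, with a BS difference of 0.22 (SE 0.15). For neither gene did a difference among OB, HC and CX pass (limma moderated F, adjusted p = 0.563 for Amt and 0.381 for Dld).

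Per kilobase of exon, the BS samples had another balance of the transcripts of the cleavage system. The mean level of Gldc per kb was 310 in OB, 243 in HC, 237 in CX and 12.1 in BS, while that of Dld was 363, 337, 426 and 431 in the same order. The ratio of Gldc to Gcsh per kb lay between 0.572 and 1.10 in the 8 samples of OB, HC and CX. In BS it lay between 0.0514 and 0.0729. The ratio of Gldc to Amt per kb was 15.5 to 19.0 in OB, 15.9 to 31.7 in HC and 13.5 to 20.1 in CX. In BS it was 0.497 to 1.07, so that the P protein transcript stood near the level of the T protein transcript there and well above it elsewhere. These ratios contain the Gldc level that the choice of genes used, and they were not tested.

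**Figure D2:**
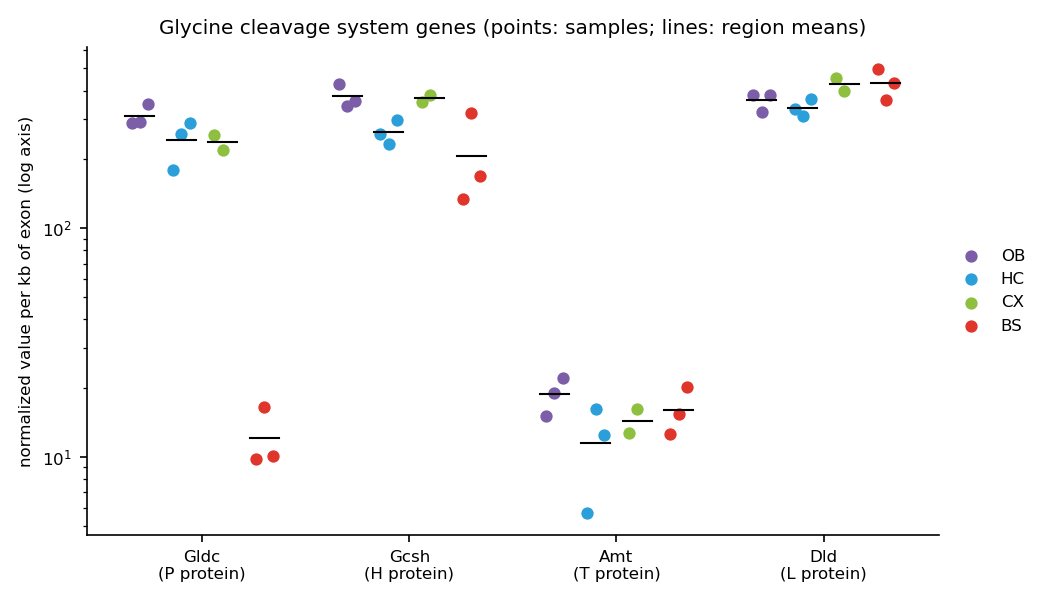
Normalized value per kb of exon (log axis) of Gldc, Gcsh, Amt and Dld in each sample, with lines at the region means. In BS, Gldc (mean 12.1) lies at the level of Amt (mean 16.1), whereas in OB, HC and CX it lies near Gcsh and Dld.

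Srr, which encodes serine racemase, makes D-serine from L-serine. Its values were 249, 302 and 329 in OB, 211, 244 and 260 in HC, 392 and 268 in CX, and 182, 230 and 179 in BS. BS 2 lay within the HC range, and BS 1 and BS 3 below all other samples. The BS difference was -0.50 (SE 0.19) on the log2(value + 1) scale, and no difference among OB, HC and CX passed (limma moderated F, adjusted p = 0.389). Srr shares 1240 of its 4560 annotated exon bases with Tsr1 on the other strand, whose mean value was 111 in BS and 143 to 180 in the other regions, and the sources used here do not say that reads were counted by strand.

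Dao encodes D-amino acid oxidase, a peroxisomal enzyme that oxidizes D-serine and is known for its high level in hindbrain and cerebellar astrocytes. It lies on chromosome 5 (114003703 to 114025682, plus strand, GRCm38). Its first RefSeq promoter window (GRCm38.p6, chr5:114003485-114003734, plus strand) is shown beside that of Gldc because their brainstem levels went in opposite directions. Capitals mark GC boxes at positions -164 and -137, and this window held no CCAAT box.
Dao: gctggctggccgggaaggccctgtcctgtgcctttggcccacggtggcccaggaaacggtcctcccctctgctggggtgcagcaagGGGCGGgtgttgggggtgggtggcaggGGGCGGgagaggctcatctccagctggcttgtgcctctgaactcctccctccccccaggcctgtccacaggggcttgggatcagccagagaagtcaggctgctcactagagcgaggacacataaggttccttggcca
The window had 6 CpG, the median of all windows, and 66.4% GC.

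Nearly all Dao reads came from BS, 528 of 543. The values were 222, 242 and 413 in the BS samples. No read fell on the gene in any of the 3 HC or 2 CX samples. In OB the values were 3.26, 7.11 and 1.62, from 3, 9 and 3 reads. The BS mean of 292 ± 105 (SD, n = 3) was 73.2 times the OB mean of 3.99. Taking 3 reads per library as the limit that a count of 0 allows, it was at least 107-fold higher than in HC and at least 63.5-fold higher than in CX. These limits cover counting error only.

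The few Dao reads outside BS all came from OB, 15 reads in 3 samples against 0 in the 5 HC and CX samples (two-sided exact permutation test on the values, n = 3 and 5, p = 0.0357, the smallest this design can give). In 2 of the 3 OB samples there were 3 reads, no more than the limit that a count of 0 allows in a library. The OB mean was below the level that 3 reads would give in the CX library of least depth, so a difference between OB and CX was not detectable at this depth.

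The BS sample with the highest Dao value was also the one with the most cerebellar granule neuron transcripts. The summed level of the 5 granule neuron markers was 26.3 in BS 1, 72.1 in BS 2 and 434 in BS 3, against 1.47 to 42.6 in the other samples, and the defining marker Gabra6 was at 0 in every OB, HC and CX sample. Bergmann glia of the cerebellum are known to express Dao, and the summed level of their 4 listed markers was 3218, 6890 and 5041 in BS 1, BS 2 and BS 3, 5458 to 5923 in OB, 2565 to 4113 in HC and 1582 to 1926 in CX. The median log2(value + 1) of these markers was 9.97 to 10.33 in the BS samples and 7.38 to 9.84 in all others. Of the 4, only Gria4 had every BS sample above every other (1202 to 3093 in BS). Gria1 was 1005 to 3259 in BS, below OB and above HC and CX. Hopx was 533 to 995 in BS and 824 to 3481 elsewhere, and Gdf10 4.01 to 73.7 in BS and 7.60 to 129 elsewhere. Scaled to Aldh1l1, Dao was 0.193 to 0.628 in BS, with BS 2 lowest and BS 3 highest, and 0 to 0.00753 in the other samples. The part of cerebellar cells in the Dao level was not tested.

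Slc6a9 encodes GlyT1, the glycine transporter of astrocytes, which clears glycine from around synapses. It lies on chromosome 4 (117834506 to 117875198, plus strand, GRCm38). The first of its 3 RefSeq windows (GRCm38.p6, chr4:117835008-117835257, plus strand) is shown because this gene gave the clearest difference among the regions that were tested. Capitals mark GC boxes at positions -61 and -51.
Slc6a9: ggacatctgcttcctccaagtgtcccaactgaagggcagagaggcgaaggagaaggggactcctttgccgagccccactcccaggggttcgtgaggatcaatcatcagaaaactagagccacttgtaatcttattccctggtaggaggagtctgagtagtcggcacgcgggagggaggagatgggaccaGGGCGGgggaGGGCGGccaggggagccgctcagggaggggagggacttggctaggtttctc

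Slc6a9 divided the regions in another way than Gldc and Dao, with OB and BS high and HC and CX low. The values were 1888, 1509 and 2002 in OB. They were 111, 163 and 172 in HC and 158 and 189 in CX. The BS samples had 1213, 2182 and 1484, on both sides of the OB range. The OB mean of 1800 ± 258 (SD, n = 3) was 12.1 times the HC mean of 149 ± 32.8 (n = 3) and 10.4 times the CX mean of 173 ± 21.4 (n = 2). The BS mean was 1626 ± 500 (n = 3).

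Both OB differences were larger than the spread between samples. OB was higher than HC by 3.60 (SE 0.20) on the log2(value + 1) scale (limma, adjusted p = 1.19e-07) and higher than CX by 3.36 (SE 0.22, adjusted p = 9.94e-07). HC minus CX was -0.24 (SE 0.22, adjusted p = 0.676). All 3 OB samples were above all 5 HC and CX samples, and the calls held in every alternative fit, with the OB minus HC difference between 3.41 and 3.72. Scaled to Aldh1l1, Slc6a9 was 1.60 to 2.09 in OB and 1.74 to 2.26 in BS, against 0.187 to 0.205 in HC and 0.120 to 0.181 in CX. Slc6a9 shares 1429 of its 5141 annotated exon bases with Ccdc24 and 46 with B4galt2 on the other strand. Ccdc24 reached at most 77.9 in any sample and B4galt2 at most 162.

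Slc6a5 encodes GlyT2, the transporter of glycinergic neurons. Its values were 17.9, 18.03 and 14.7 in BS, from 33 reads. The gene had 3 reads in the OB samples, all in OB 3, 1 in the HC samples and none in CX. All 3 BS samples were above all others, and the BS mean of 16.9 ± 1.86 (SD, n = 3) was at least 3.67-fold higher than in CX. OB did not differ detectably from HC and CX (two-sided exact permutation test, n = 3 and 5, p = 0.75). Per kilobase, Slc6a5 stood at 2.34 in BS where Slc6a9 stood at 397.

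Markers of neurons did not follow Slc6a5 as a whole. The summed level of 4 listed glycinergic neuron markers, which contains Slc6a5 itself and the glycine receptor gene Glra1, was 299 to 394 in BS. It was 23.0 to 80.5 in the other samples. For 3 of the 4 every BS sample was above every other. The exception was Slc32a1, at 3.15, 52.1 and 42.1 in the BS samples and 5.03 to 76.6 elsewhere. Nefh, a neurofilament gene of large projection neurons, made up most of that sum, with 340, 202 and 210 in the BS samples and 3.16 to 42.5 elsewhere. The sum of 10 general neuron markers was 2817 to 3818 in BS and 1294 to 3648 in the other samples, with overlap, and every BS sample was above all others for 2 of the 10 (Stmn2 and Nefl) and below for 3 (Syt1, Rbfox3 and Slc17a7). The part of neuronal RNA in the Slc6a5 level was not tested.

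Phgdh and Psat1 encode the dehydrogenase and the aminotransferase that carry out the first and the second step of serine synthesis from 3-phosphoglycerate. Their windows are shown because the pair ranked CX highest and BS lowest. Capitals mark CCAAT boxes, at positions -193 and -23 in Phgdh (GRCm38.p6, chr3:98339970-98340219, minus strand) and at positions -36 and -6 in the first window of Psat1 (chr19:15925060-15925309, minus strand).
Phgdh: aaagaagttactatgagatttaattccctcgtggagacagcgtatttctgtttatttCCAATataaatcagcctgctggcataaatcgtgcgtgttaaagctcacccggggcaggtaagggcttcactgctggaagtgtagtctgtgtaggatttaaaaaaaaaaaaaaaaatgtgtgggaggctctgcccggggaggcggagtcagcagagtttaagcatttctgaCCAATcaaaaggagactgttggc
Psat1: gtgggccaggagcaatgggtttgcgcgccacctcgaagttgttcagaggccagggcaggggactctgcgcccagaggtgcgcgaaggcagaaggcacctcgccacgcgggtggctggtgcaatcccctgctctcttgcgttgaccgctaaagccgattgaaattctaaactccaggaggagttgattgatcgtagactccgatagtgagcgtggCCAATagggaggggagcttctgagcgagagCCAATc
Neither window held a GC box.

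By normalized value Phgdh was lowest in BS and highest in CX. Its values were 737, 628 and 603 in OB, 653, 965 and 910 in HC, 1064 and 1132 in CX, and 182, 365 and 389 in BS. Both CX samples were above every other sample and all 3 BS samples below. The means were 656 ± 71.6 (SD, n = 3) in OB, 842 ± 166 (n = 3) in HC, 1098 ± 47.7 (n = 2) in CX and 312 ± 113 (n = 3) in BS. The BS difference was -1.46 (SE 0.26) on the log2(value + 1) scale. Among the other regions, OB minus CX was -0.75 (SE 0.19, limma, adjusted p = 0.0291) and passed, with all 3 OB samples below both CX samples. OB minus HC was -0.35 (adjusted p = 0.264) and HC minus CX -0.40 (adjusted p = 0.329). Scaled to Aldh1l1 the order at the top turned, with 0.993 to 1.21 in HC, 0.808 to 1.09 in CX and 0.628 to 0.757 in OB, while BS stayed lowest at 0.290 to 0.593. The OB minus CX call was lost without OB 2 (adjusted p = 0.0937), OB 3 (0.101), CX 1 (0.172) or CX 2 (0.193) and in the fit to all 11 samples (0.171).

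Psat1 had the same order at its ends. Its values were 1737, 1302 and 1429 in OB, 866, 1560 and 1290 in HC, 2182 and 2104 in CX, and 503, 881 and 648 in BS. CX was again above every other sample, and BS 2 overlapped HC 1. Scaled to Aldh1l1, CX (1.66 to 2.02) overlapped OB (1.38 to 1.78) and HC (1.41 to 1.87), and BS (0.702 to 0.987) lay below all of them. The BS difference was -1.19 (SE 0.25) on the log2(value + 1) scale. HC minus CX was -0.83 (SE 0.22, adjusted p = 0.0679) and OB minus CX -0.54 (adjusted p = 0.192), so neither passed (limma).

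The third enzyme of the pathway, the phosphatase Psph, was not among the 10 genes and was tested in BS as part of a wider list. That list was also chosen with earlier results of these data known. It was 81.0 to 150 in the BS samples and 220 to 343 in the others, with no overlap. The means were 246 ± 21.9 (SD, n = 3) in OB, 277 ± 30.2 (n = 3) in HC, 325 ± 25.7 (n = 2) in CX and 118 ± 35.0 (n = 3) in BS. The BS difference was -1.25 (SE 0.20) on the log2(value + 1) scale (limma, adjusted p = 0.00206), and it passed in all 18 alternative fits. By mean normalized value Psph ranked CX first and BS last, as Phgdh and Psat1 did. The CX end was not separate for Psph: HC 3 (311) lay above CX 2 (307). HC minus CX was -0.23 (SE 0.20, limma, adjusted p = 0.643). Psph was not scaled to Aldh1l1.

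**Figure D3:**
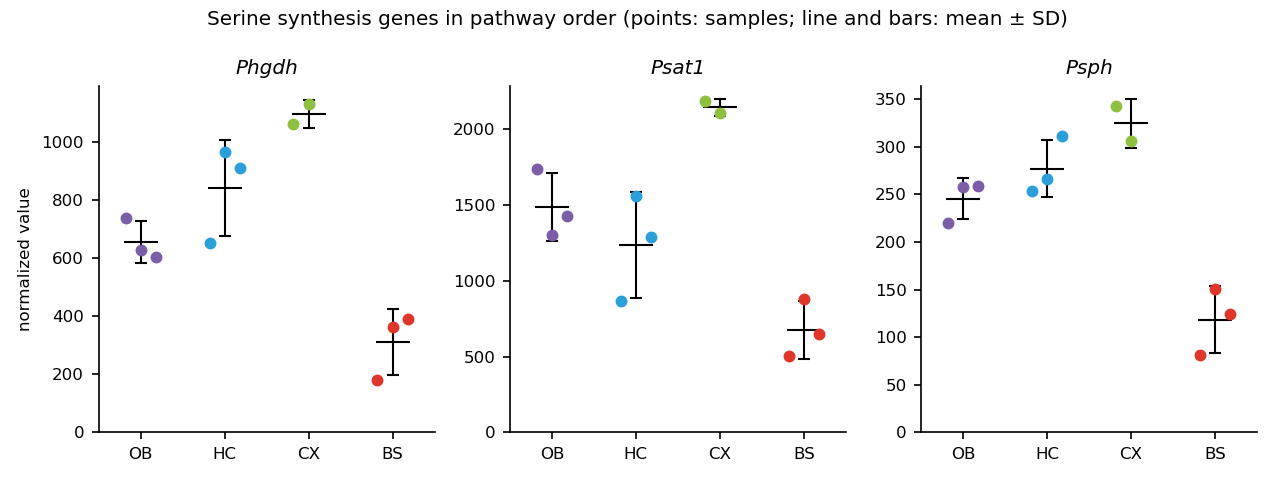
Normalized value (linear axis from 0) of Phgdh, Psat1 and Psph in each sample, in the order of the pathway. Points are samples, lines are region means and bars are ± 1 SD; in all 3 panels the CX mean is highest and the BS mean lowest, with Psph at 118 in BS and 325 in CX.

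Across the 10 genes, every BS sample was above every other for 2 (Dao and Slc6a5) and below every other for 2 (Gldc and Phgdh), and the samples overlapped for 6. Over all 13875 genes with enough reads, 3.7% had every BS sample above and 4.19% every BS sample below. The BS levels took part in the choice of the list, and Dao and Slc6a5 passed the filter on low counts through their BS samples, so nothing is read from these counts. For Phgdh and Psat1 both CX samples were above all others by normalized value, though not after scaling to Aldh1l1, and the same held by normalized value for 5.02% of all genes.

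The tests among OB, HC and CX called 2 of the 8 genes that could be tested, Slc6a9 and Phgdh (limma moderated F, adjusted p = 1.97e-07 and 0.0496), where 11.2% of all 13529 genes tested were called. By pair, OB was higher than HC for 1 of the 8 and lower for 0 (5.03% and 4.58% of all genes). OB was higher than CX for 1 and lower for 1 (3.84% and 3.28%). Between HC and CX limma called 0 (1.43% of all genes higher and 0.954% lower in HC), with 2 at an unadjusted p under 0.05, edgeR called 0 and DESeq2 called 1, Psat1. DESeq2 also called Gcsh as higher in OB than in HC. No gene of the 8 had an unadjusted p under 0.05 as lower in OB than in HC in limma or edgeR, and 1 did in DESeq2, which did not pass. For all genes the share at an unadjusted p under 0.05 was not counted, so nothing is read from the unadjusted counts. The plot of pair differences shows Slc6a9 apart from the other genes.

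**Figure D4:**
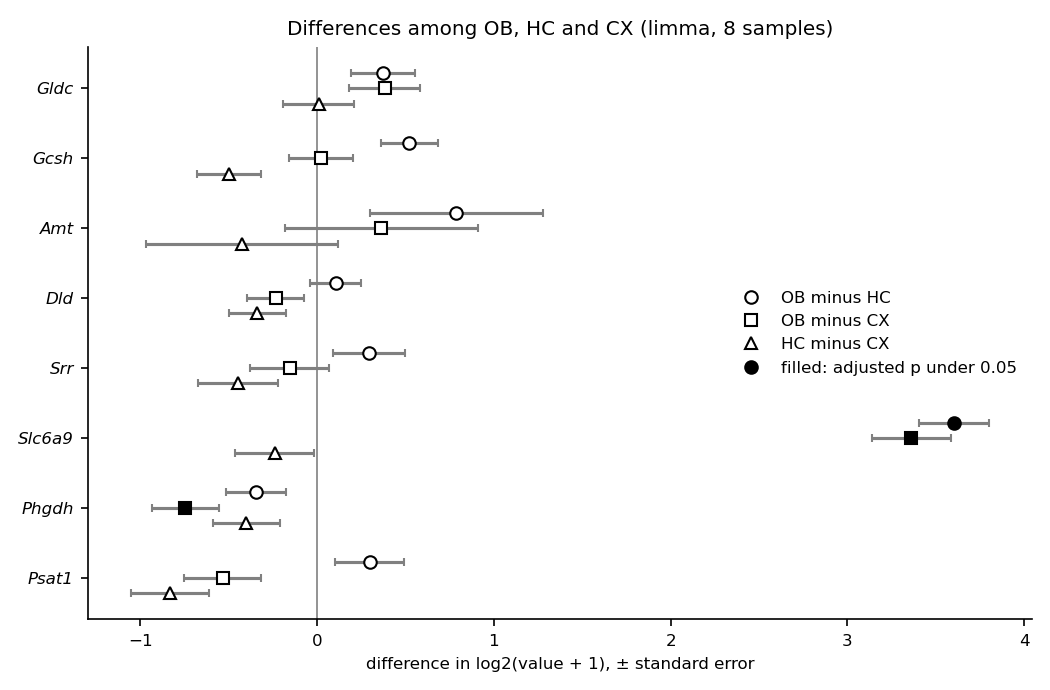
Difference in log2(value + 1) between pairs of OB, HC and CX (horizontal axis, ± SE) for the 8 genes tested over 8 samples; circles are OB minus HC, squares OB minus CX, triangles HC minus CX, and filled symbols passed an adjusted p of 0.05. Slc6a9 lies at 3.60 and 3.36 for the OB pairs, and all other differences lie between -0.83 and 0.79.

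A wider list of 76 other genes of serine, glycine and one-carbon metabolism was tested in each region against the other 3 pooled, and 68 had enough reads. In BS 3 were higher and 2 lower (limma), where 2% of all genes were higher and 3.42% lower, and the median log2 difference was 0.08 over the list and 0.02 over all genes. Of the 3 higher, Glra1 passed the filter on low counts through its BS samples, so its values are given as a description and nothing is read from its call. All 3 genes of serine and glycine interconversion (Psph and the hydroxymethyltransferases), 14 of 14 transporters, 21 of 22 folate genes and 5 of 6 genes of the glycine receptor group could be tested. In limma 0 of the 21 folate genes, the 14 genes that consume glycine or serine, the 7 of methionine, betaine and sarcosine, the 3 of lipoylation and the D-aspartate oxidase gene Ddo were called in BS, with unadjusted p under 0.05 for 2 folate genes, 1 consuming gene and 1 of the methionine group. Nothing is read from these unadjusted counts, since the share of all genes at that threshold was not counted.

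Among the transporters, 2 of 14 were higher in BS. Slc7a10 (Asc-1), an exchanger of small neutral amino acids including glycine and D-serine, was 369, 675 and 469 in the BS samples and 229 to 329 in the others. The difference was 0.73 (SE 0.18) on the log2(value + 1) scale (limma, adjusted p = 0.0313), and it was lost without BS 2 (adjusted p = 0.115), BS 3 (0.103), OB 2 (0.0501) or CX 1 (0.0503). Slc38a1, a neutral amino acid transporter, was 834, 777 and 970 in BS and 173 to 675 in the others, a difference of 1.42 (SE 0.34, adjusted p = 0.0287) that was lost in edgeR (adjusted p = 0.0510) and without BS 1 (0.109), BS 2 (0.0539) or BS 3 (0.133).

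Of the glycine receptor genes, Glrb was lower in BS. Glra1, the alpha subunit of adult brainstem and spinal cord receptors, was 33.6, 26.0 and 35.8 in BS, from 62 reads, and 0 to 2.15 in the others, from 6 reads. Glra1 was also counted among the listed glycinergic neuron markers, so its values are part of their sum, although it encodes a receptor subunit. Glrb, the beta subunit that anchors the receptor to gephyrin, was 332, 555 and 530 in BS and 724 to 1263 in the others, a difference of -1.15 (SE 0.19, limma, adjusted p = 0.00329).

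**Figure D5:**
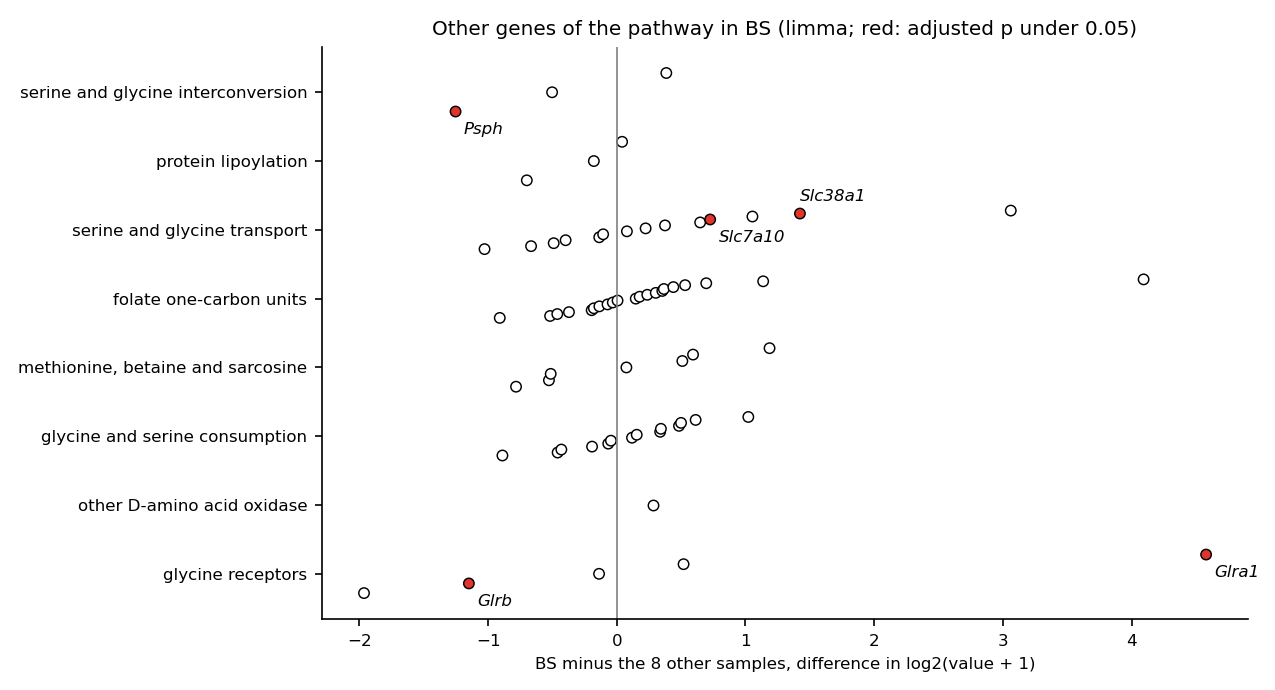
Difference in log2(value + 1) between BS and the 8 other samples (horizontal axis) for the 68 tested genes of the wider list, 1 point per gene, in rows by role. Red points passed an adjusted p of 0.05: Glra1 at 4.58 (few reads outside BS), Slc38a1 at 1.42 and Slc7a10 at 0.73 to the right, and Psph at -1.25 and Glrb at -1.15 to the left.

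In OB 2 of the 68 were higher and 1 lower (limma), where 2.57% of all genes were higher and 2.01% lower. Glra4, another glycine receptor alpha subunit, had 110 reads in OB (mean 31.3 ± 18.8, SD, n = 3), 2 in HC and none in CX or BS. It passed the filter through its OB samples, and nothing is read from its call. Slc38a3, a glutamine transporter of astrocytes that also carries other neutral amino acids, was 2639 to 3578 in OB and 922 to 2157 in the others. Its difference was 1.15 (SE 0.24, adjusted p = 0.0138) and was lost without OB 2 (adjusted p = 0.0731) or OB 3 (0.109). Folr1, a folate receptor, was at 0 in OB, at 8.79 and 3.07 in CX (7 and 2 reads) and at 76.1 to 487 in HC and BS. Its difference in OB was -6.53 (SE 1.26, limma, adjusted p = 0.00745, and 0.0513 without OB 2). Folr1 is also one of the choroid plexus markers, whose sums followed the same regions.

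In HC and CX no gene of the wider list passed in limma, edgeR or DESeq2. In HC 7 of the 68 and in CX 11 of the 68 had an unadjusted p under 0.05 in limma. The share of all genes at that threshold was not counted, so nothing is read from these counts. At an adjusted p under 0.05, limma called 0% of all genes in HC in either direction, and 0% as higher and 0.0144% as lower in CX.

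The genes whose log2 values ran most like those of Gldc over the 11 samples were sought among 11293 genes with a mean value over 20. They included Lhx2 (Pearson r = 0.989), C030018K13Rik (0.988) and Tenm3 (0.983). Lhx2, which encodes a LIM homeobox transcription factor, was 1060 to 2222 in the OB, HC and CX samples and 2.10 to 8.01 in BS. Tenm3, a teneurin adhesion protein gene, was 1254 to 2018 in the OB, HC and CX samples and 330 to 497 in BS. For Dao the most alike were A330076C08Rik (r = 0.960), Plekha6 (0.944), Car13 (0.939), Mob3b (0.925) and Itpkb (0.925). Itpkb, an inositol trisphosphate kinase, was 1263 to 2346 in BS and 328 to 503 elsewhere. These correlations share the same libraries and rest on the step between BS and the other samples, so they carry no test.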

How the data were processed

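RNA from eGFP+ cells of OB, HC, CX and BS was sequenced in 11 libraries. Per the labels and the study's methods, reads were mapped to mm10 with STAR (2.5.0a) and counts normalized with DESeq2 (1.20.0). The deposited files hold a normalized signal, read counts the authors divided by 1 size factor per sample. All nonzero values (100%) were whole reads to within 0.01 of a read. A total of 27 gene names had turned into dates, Sept4 among the markers.

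For each gene, limma (3.58.1, R 4.3.3) compared log2(value + 1) with its trended prior variance, after edgeR's (4.0.16) filter on low counts, with Benjamini-Hochberg adjusted p under 0.05 over all genes tested. Fold changes of low genes are understated on this scale. Members and lists were chosen with earlier results of these data known. Genes named were the 10 members, Aldh1l1, the called genes of the wider list (at most 12 in BS and 4 in each other region) and the 5 genes most alike to Gldc (some not reported here) and to Dao; single markers and overlapping genes were named after their values were seen. Lengths are unions of exons of protein-coding transcripts (GENCODE M21, GRCm38). Promoters are from RefSeq (all 10 members matched, 16 windows). Alternatives were a pseudocount of 0.25, no filter, TMM factors, edgeR, DESeq2 (1.42.0), a replicate block, other sample sets, the study's thresholds applied to the limma fit and leaving out each sample. The fits were tested on simulated data.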

Additional observations from a re-analysis of the deposited data

How the results depend on the processing

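Of the 10 genes, 2 were called among OB, HC and CX; 1 was called with a pseudocount of 0.25, with TMM factors, in edgeR and in the fit to all 11 samples, and 1 to 3 when each sample was left out. Slc6a9 was called in all 15 alternatives and Phgdh in 4 (adjusted p from 0.00816 to 0.262). In the wider list, BS had 5 calls, 9 against a mean for each region and 3 to 7 with a sample left out (3 without BS 3). OB had 3 calls, 6 in DESeq2, 6 against a mean for each region, 6 by the study's rule (unadjusted p under 0.01, fold over 1.5, value over 5 in 2 replicates) and 1 to 4 with a sample left out (1 without OB 2). HC had 0 calls, 2 against a mean for each region and 1 by these thresholds on the limma fit, and CX had 0, 3 and 4. The cause was not tested. No called result changed direction. Of values without a test, the BS difference of Amt was -0.02 to 0.32, and that of the ependyma markers was 1.76 on the sum and -0.18 on the median of the list. Beyond these counts, calls of single genes were lost 8 times and gained 2 times under other settings, and lost 28 times and gained 2 times with a sample left out. The exact test of Dao in OB gave p = 0.0571 to 0.0952 with a sample left out, since fewer samples cannot reach a smaller p.

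Over all pairs of regions, the deviations of same-numbered samples correlated at -0.160 to 0.2497. The correlation was over 0.1 in 3 of 15 such pairs, against 5 of 30 for other numbers. Between OB and HC, however, every same-numbered pair was positive (0.07396 to 0.2497) and above every other OB and HC pair (-0.2244 to 0.0283). Each other pair of regions held a negative same-numbered correlation. Whether same-numbered OB and HC samples share an animal was not tested. The replicate block gave 3 calls among the 10 genes, with Psat1 added (adjusted p = 0.0437), and 4, 3, 0 and 0 in the wider list for BS, OB, HC and CX. Under the block Slc38a1 was no longer called in BS (adjusted p = 0.0581).

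Depth limits the low genes most: Dao in OB rests on 15 reads and Slc6a5 in BS on 33. With 2 samples in CX and 3 elsewhere, an adjusted p over 0.05 does not show equal levels. Other scaling moved the median of all genes by at most 0.04 on the log2 scale.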
